A study of Homo sapiens with 4 samples.

Results

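Immunoglobulin variable (V) gene segments are the short germline exons from which B lymphocytes assemble the antigen-binding domains of antibodies. The members described here were the 130 genes that RefSeq annotates on GRCh38 as V segments with symbols starting IGHV (heavy chain, chromosome 14, 48 genes), IGKV (kappa light chain, chromosome 2, 44 genes) or IGLV (lambda light chain, chromosome 22, 38 genes), out of 59098 annotated genes on chromosomes 1 to 22 and X. A segment was counted as carrying a peak when the midpoint of a listed peak lay within 1 kb of either of its ends. The segments were selected on peak positions in these same lists, which were known beforehand, so all counts, scores and shares of members below are descriptions without a test.

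The peaks came from ChIP-seq, the sequencing of DNA recovered with a protein from fixed chromatin, in the human prostate cancer cell line DU145. A Myc-tagged TCF3 and a Flag-tagged ATOH8 were each profiled with 1 immunoprecipitation and 1 input library, so there were no replicates and no error between libraries could be given. The input libraries were not analysed here. No promoter for the tagged proteins and no number of clones were given in the sources used here, and a peak list holds no expression with which to check the cell type. The lists held 11330 TCF3 peaks and 4951 ATOH8 peaks on chromosomes 1 to 22 and X, and sequencing depth was not known from them. Each peak had a score that is the authors' own value, used here only to describe and rank peaks within a list. It ran from 35 to 8401 with a median of 61 in the TCF3 list, and from 51 to 8846 with a median of 84 in the ATOH8 list. Peaks with scores between 280 and 887 (TCF3) and between 356 and 996 (ATOH8) were not analysed here, so the absence of a peak from a list does not show that a segment was unbound.

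In developing B cells a V segment is joined to a joining (J) segment, with a diversity (D) segment between them in the heavy chain locus, by cutting at recombination signal sequences made of a heptamer and a nonamer beside each segment. In other cell types the segments stay in their germline arrangement. TCF3 encodes the E proteins E12 and E47, basic helix-loop-helix (bHLH) factors that bind E-boxes (CANNTG), are needed for B lymphocyte development, and were first described through E-boxes in immunoglobulin enhancers. ATOH8 is a bHLH factor of the atonal group. The human heavy chain V segments are read from the minus strand, so the lower-coordinate end of each is its recombination signal end and the higher-coordinate end is its promoter end.

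Sequence was at hand for the few V segments that are reached by the window from 250 bases before to 50 bases after a RefSeq gene start. Those below show what DNA lay under a TCF3 peak at a heavy chain segment and at a heavy chain pseudogene, beside windows from the light chain loci that carried none. Each is the RefSeq window of an uncharacterised non-coding RNA gene (GRCh38.p14), 5′ to 3′, with every CANNTG word in capitals. The window reaching IGHV3-64 (chr14:106657645-106657944, plus strand, start of LOC102724977) held 222 bases of that segment and lay wholly inside a TCF3 peak with score 61. The window reaching the pseudogene IGHV3-19 (chr14:106196442-106196741, plus strand, LOC105370700) held 44 of its bases and lay wholly inside a TCF3 peak with score 70. The window reaching IGKV2-30 (chr2:89244711-89245010, minus strand, LOC107985910) held 230 bases of that segment, and the window reaching IGLV3-1 (chr22:22881076-22881375, minus strand, LOC102724638) lay wholly inside its segment.
IGHV3-64 window: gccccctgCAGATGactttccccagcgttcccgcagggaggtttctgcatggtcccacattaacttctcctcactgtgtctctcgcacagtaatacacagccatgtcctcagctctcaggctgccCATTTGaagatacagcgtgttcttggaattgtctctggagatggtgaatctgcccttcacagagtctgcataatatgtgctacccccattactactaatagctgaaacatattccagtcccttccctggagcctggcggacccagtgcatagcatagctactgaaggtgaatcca
IGHV3-19 window: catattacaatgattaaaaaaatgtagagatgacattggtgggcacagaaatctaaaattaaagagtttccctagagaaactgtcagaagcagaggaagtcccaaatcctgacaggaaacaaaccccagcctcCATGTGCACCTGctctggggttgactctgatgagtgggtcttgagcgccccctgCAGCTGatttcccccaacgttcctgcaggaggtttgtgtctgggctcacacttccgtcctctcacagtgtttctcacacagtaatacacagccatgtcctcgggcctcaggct
IGKV2-30 window: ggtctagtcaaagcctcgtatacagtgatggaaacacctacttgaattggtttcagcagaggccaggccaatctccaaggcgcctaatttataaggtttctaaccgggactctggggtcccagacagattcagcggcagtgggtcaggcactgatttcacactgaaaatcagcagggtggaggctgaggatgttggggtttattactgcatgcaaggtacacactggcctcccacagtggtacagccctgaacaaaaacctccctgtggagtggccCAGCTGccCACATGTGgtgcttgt
IGLV3-1 window: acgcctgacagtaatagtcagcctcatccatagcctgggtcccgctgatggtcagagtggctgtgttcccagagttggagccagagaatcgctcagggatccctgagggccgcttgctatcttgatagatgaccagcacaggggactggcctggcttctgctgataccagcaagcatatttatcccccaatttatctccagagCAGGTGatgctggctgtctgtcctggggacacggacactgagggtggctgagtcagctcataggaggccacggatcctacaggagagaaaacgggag

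The IGHV3-64 window held 2 CANNTG words, and CAGATG, the outer of these, ended 64 bp below the lower-coordinate end of the segment. The IGHV3-19 window held 3, and CAGCTG among them ended 63 bp below that pseudogene. In both windows a match to the recombination heptamer, searched as CACAGTG on either strand, lay directly beside the lower-coordinate end with no base between. The 2 matches were on opposite strands, CACTGTG in the IGHV3-64 window and CACAGTG in the IGHV3-19 window. Read on the minus strand, that of the heavy chain V segments, only the IGHV3-64 match is CACAGTG. The IGKV2-30 window, which carried no peak, also held 3 CANNTG words, 2 of them overlapping, and its CAGCTG ended 46 bp below the segment. The heptamer lay 2 bp below IGKV2-30. The IGLV3-1 window held 1 CANNTG word, a CAGGTG inside the segment, and no heptamer. E-box words were thus present in the printed windows with a peak and in those without. Among 34683 distinct RefSeq windows of 300 bases, 68.7% held CANNTG on either strand, 17.9% held CAGCTG, 20.6% held CAGGTG and 5.36% held CACAGTG. The first 3 of these overlap, since CAGCTG and CAGGTG are also CANNTG words. The octamer ATGCAAAT, known from immunoglobulin promoters, was in 1.76% of the windows and in none of the 4 printed. The IGHV3-64, IGHV3-19 and IGKV2-30 windows extended only past the end with the heptamer, and the IGLV3-1 window lay inside its segment. No V promoter was covered by the printed windows, so the absence of the octamer from them says nothing about V promoters. Windows reaching IGLV8-61 (start of LOC102724653) were also at hand and are not printed. They extended past the lower-coordinate end of that segment and carried no TCF3 peak. They held a CAGCTG that ended 40 bp below it, and no ATGCAAAT. These matches say only which letters lie in the windows.

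TCF3 peaks were listed at 30 of the 130 V segments (23.1%, Wilson 95% interval 16.7 to 31.0%, counting error only), and 29 of these 30 were heavy chain segments. At the same distance 13.4% of all annotated genes, 20.3% of protein-coding genes and 9.76% of annotated pseudogenes of every kind had a TCF3 peak. Of the IGHV segments, 29 of 48 carried one (60.4%, 46.3 to 73.0%). None of the 44 IGKV segments did (0%, Wilson 95% interval 0 to 8.03%, counting error only). In the lambda locus only IGLV1-40 of 38 segments carried one. One of the lambda segments, IGLV5-39, is placed far from the locus in the gene table, so its lack of a peak says nothing about it. The difference between the 3 loci was not tested.

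No ATOH8 peak was listed within 1 kb of any of the 130 V segments, which allows a share of up to 2.31%, and no segment had peaks of both factors. The share was 8.09% over all annotated genes, 17.6% over protein-coding genes and 0.948% over pseudogenes. The nearest ATOH8 midpoint to a heavy chain segment was 1.86 kb from IGHV7-81, and the nearest to a kappa segment was 15.1 kb from IGKV2D-40. In the lambda locus the nearest was 92.6 kb away, at IGLV4-69.

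**Figure D1:**
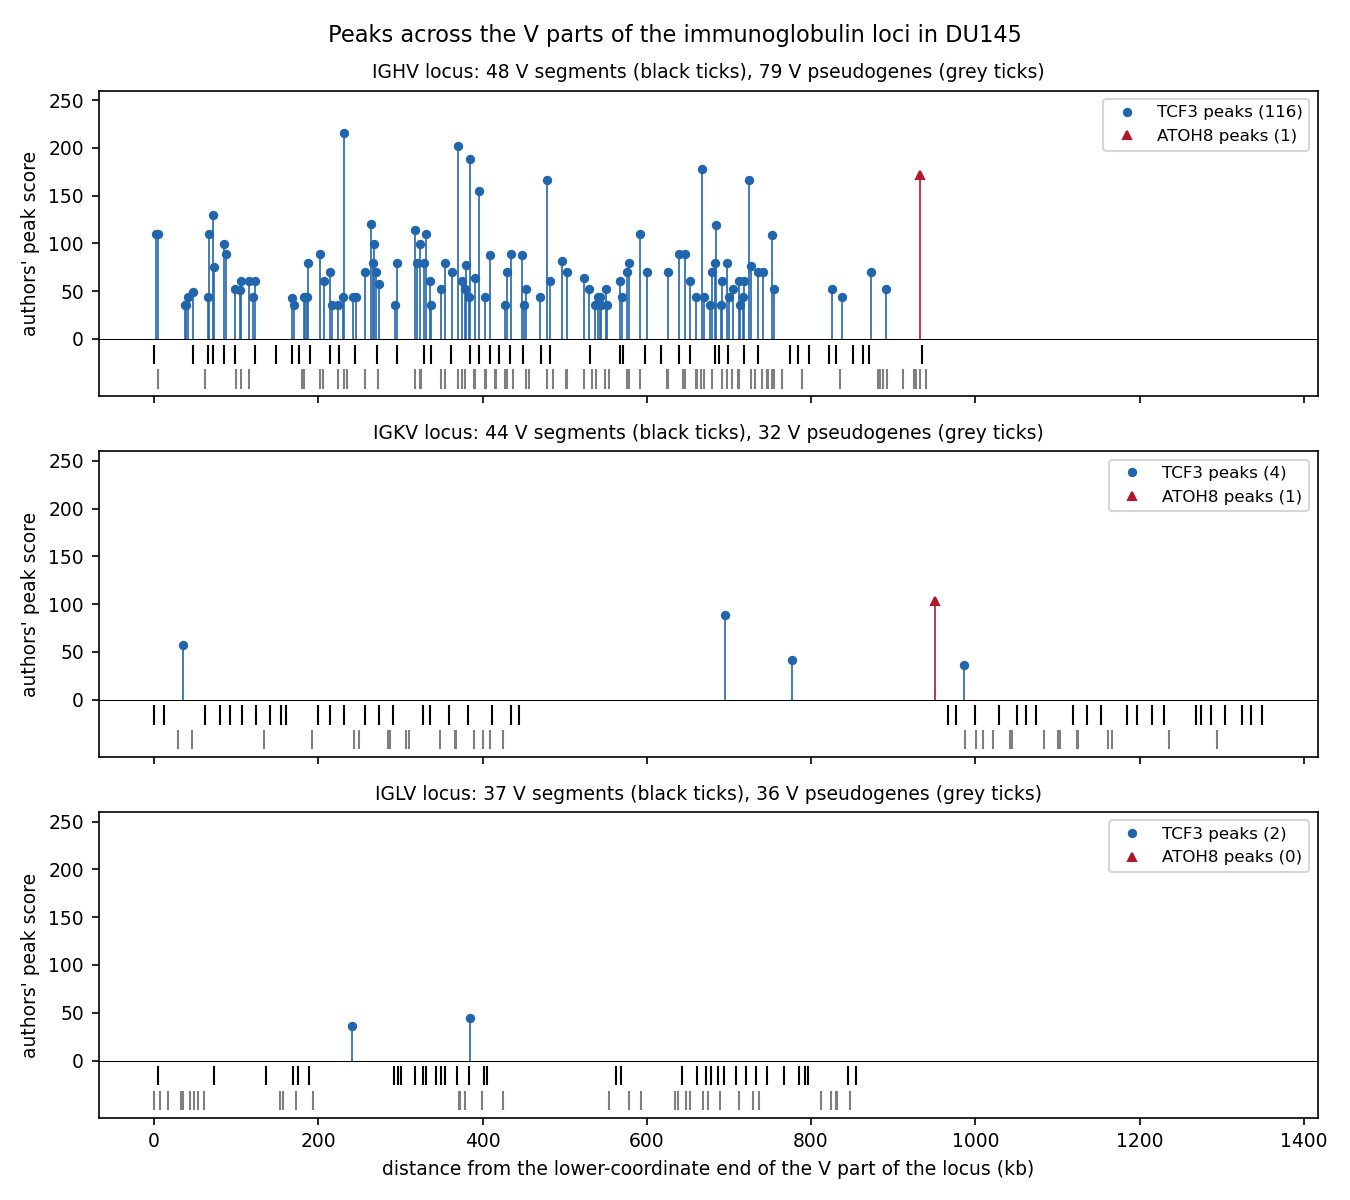
Authors' peak score (vertical axis) against distance from the lower-coordinate end of the V part of each locus in kb, with blue circles for TCF3 peaks, red triangles for ATOH8 peaks, black ticks for V segments and grey ticks for V pseudogenes. The IGHV panel holds 116 TCF3 peaks, against 4 in the IGKV panel and 2 in the IGLV panel, and each of the IGHV and IGKV panels holds 1 ATOH8 peak.

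V pseudogenes, which lack an intact reading frame, are annotated among the segments of all 3 loci. TCF3 peaks lay at 29 of 48 IGHV segments (60.4%) and at 45 of 79 IGHV pseudogenes (57.0%, 46.0 to 67.3%). The difference between these shares was not tested. In the kappa locus 0 of 44 segments and 1 of 32 pseudogenes had a TCF3 peak, and in the lambda locus 1 of 38 segments and 0 of 36 pseudogenes. The highest scores at heavy chain pseudogenes were 215 at IGHVIII-16-1, 202 at IGHVIII-26-1, 178 at IGHV4-55, 166 at IGHVIII-38-1 and 114 at IGHV3-22. The kappa pseudogene was IGKV2D-38, with a score of 36. ATOH8 had a peak at 1 of the 147 V pseudogenes, IGHV4-80, near the telomeric end of the heavy chain locus. That peak (chr14:106872270-106873165) had a score of 172, above that of 92.1% of the ATOH8 peaks, and the midpoint of the closest TCF3 peak was 41.6 kb away.

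T cell receptor V segments are built on the same plan and rearranged by the same enzymes in T lymphocytes. Of 99 such segments placed in their loci, 2 had a TCF3 peak (2.02%, 0.556 to 7.07%), TRBV6-3 with a score of 61 and TRBV7-2 with 36. None of the 99 had an ATOH8 peak. Orphons are copies of V segments outside their home locus, and 5 of 18 annotated IGHV orphon pseudogenes had a TCF3 peak. These were IGHV1OR15-2 (99) and IGHV1OR15-9 (70) on chromosome 15, and IGHV3OR16-7 (99), IGHV3OR16-9 (36) and IGHV3OR16-11 (36) on chromosome 16. Of 18 IGKV orphon pseudogenes, 2 had one, both with a score of 36. None of the 3 orphons annotated as V segments had a TCF3 peak.

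**Figure D2:**
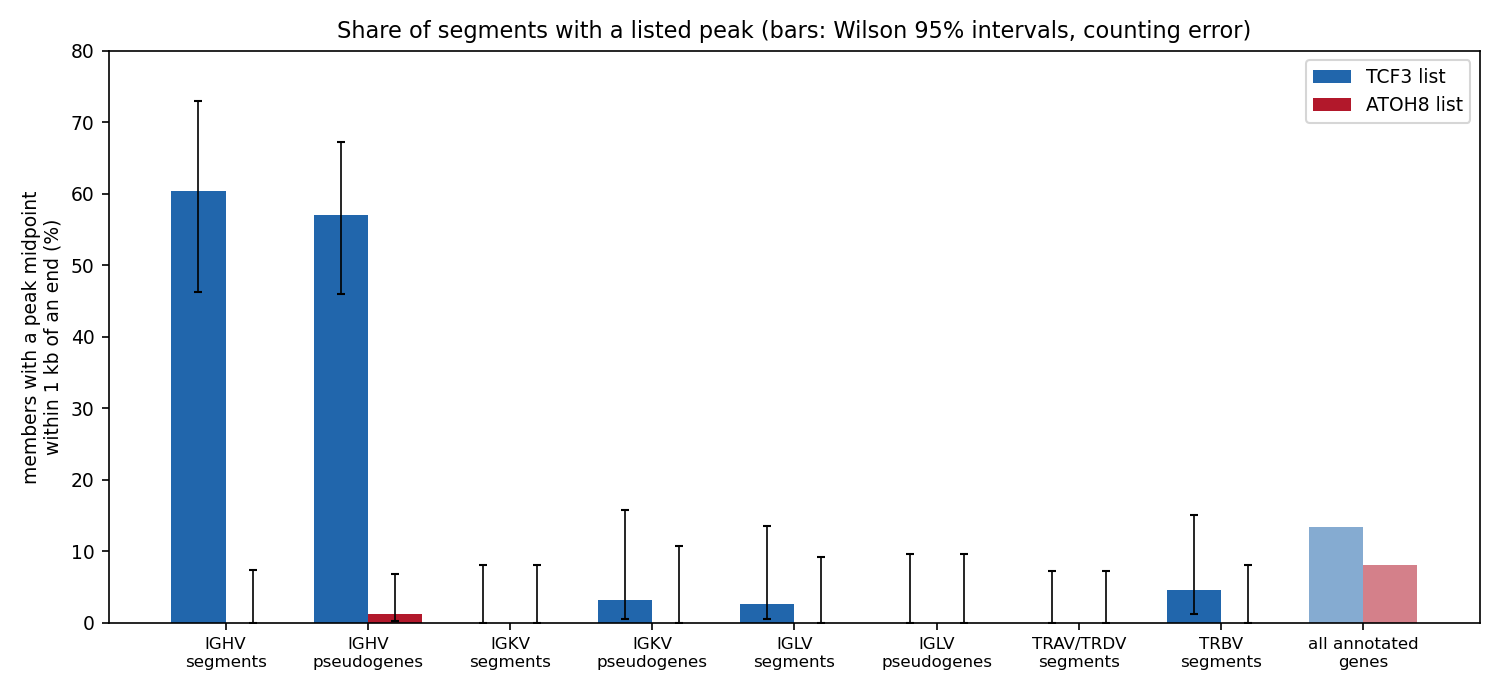
Percentage of genes with a peak midpoint within 1 kb of an end, for V segments and V pseudogenes by locus, T cell receptor V segments and all annotated genes, with blue bars for the TCF3 list and red bars for the ATOH8 list, and Wilson 95% intervals as error bars (none drawn for all annotated genes). The IGHV segments (60.4%) and IGHV pseudogenes (57.0%) stand high for TCF3, while every other V set shown lies below the 13.4% of all annotated genes.

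The heavy chain V part spans 940 kb (chr14:105939754-106879844) and held 116 TCF3 peaks with their midpoint inside it, which is 12.3 per 100 kb. The V part of the kappa locus held 0.296 per 100 kb and that of the lambda locus 0.234. Over the annotated span of chromosomes 1 to 22 and X the TCF3 list held 0.374 per 100 kb. Among fixed 1 Mb bins of the genome, that from 106 to 107 Mb of chromosome 14 had more TCF3 peaks than any other (110). The bin from 105 to 106 Mb came next (59). It holds the rest of the locus and also DNA below the constant part, so not all of its peaks lay in the locus. The constant part held 19 of them and the D and J part 10. The median over the 2378 bins with a peak was 3. Peaks were dense in the other parts of the heavy chain locus as well, with 12.0 per 100 kb in the D and J part and 7.06 in the constant part. The 1 Mb below the constant part had 3.70. The T cell receptor alpha and delta V part, also on chromosome 14, had 0.354, the beta V part had 1.36 and the gamma V part, the shortest at 76.4 kb with 2 peaks, had 2.62.

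Other pieces of the heavy chain gene carried TCF3 peaks too. Peak midpoints lay within 1 kb of 7 of 27 D segments, 4 of 6 J segments (IGHJ1 to IGHJ4) and 6 of 9 constant genes. Because some peaks there were several kb wide, a count by midpoint can leave out genes that lie under a peak. TCF3 peaks covered 40.7% of the bases of the D and J part, against 13.0% of the V part and 10.0% of the constant part. Peaks in the D and J part reached higher scores and greater widths than those at the V segments. The highest there had a score of 253 (chr14:105878082-105878982), and the widest spanned 7704 bp with a score of 205. No J or constant gene of the kappa or lambda locus had a peak of either factor within 1 kb.

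Of the 116 TCF3 peaks of the heavy chain V part, 30 (25.9%) shared a base with a V segment and 71 (61.2%) with a segment or pseudogene. Peaks covered 59.2% of the bases of IGHV segments and 52.7% of the bases of IGHV pseudogenes. They covered 23.9% of the other bases within 1 kb of either, and 5.79% of the rest of the V part. All 29 IGHV segments with a peak shared bases with it, and 21 were covered from end to end. The segments are 432 to 542 bp long and the peaks at them were 433 to 2242 bp wide, with a median of 1081 bp against 718 bp over all TCF3 peaks. By midpoint, 30 of the 116 peaks lay within 1 kb of a V segment, 44 within 1 kb of a V pseudogene and 42 near neither. No peak was near both kinds, so none of the peaks at V segments was counted through a neighbouring pseudogene.

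Peak midpoints fell inside 15 of the 29 segments, below the lower-coordinate, recombination signal end of 8 and above the promoter end of 6. The median offset from the segment centre was -105.5 bp, toward lower coordinates, with a range of -777.5 to 428.5 bp. At the 45 pseudogenes with a peak the median offset was -100 bp.

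**Figure D3:**
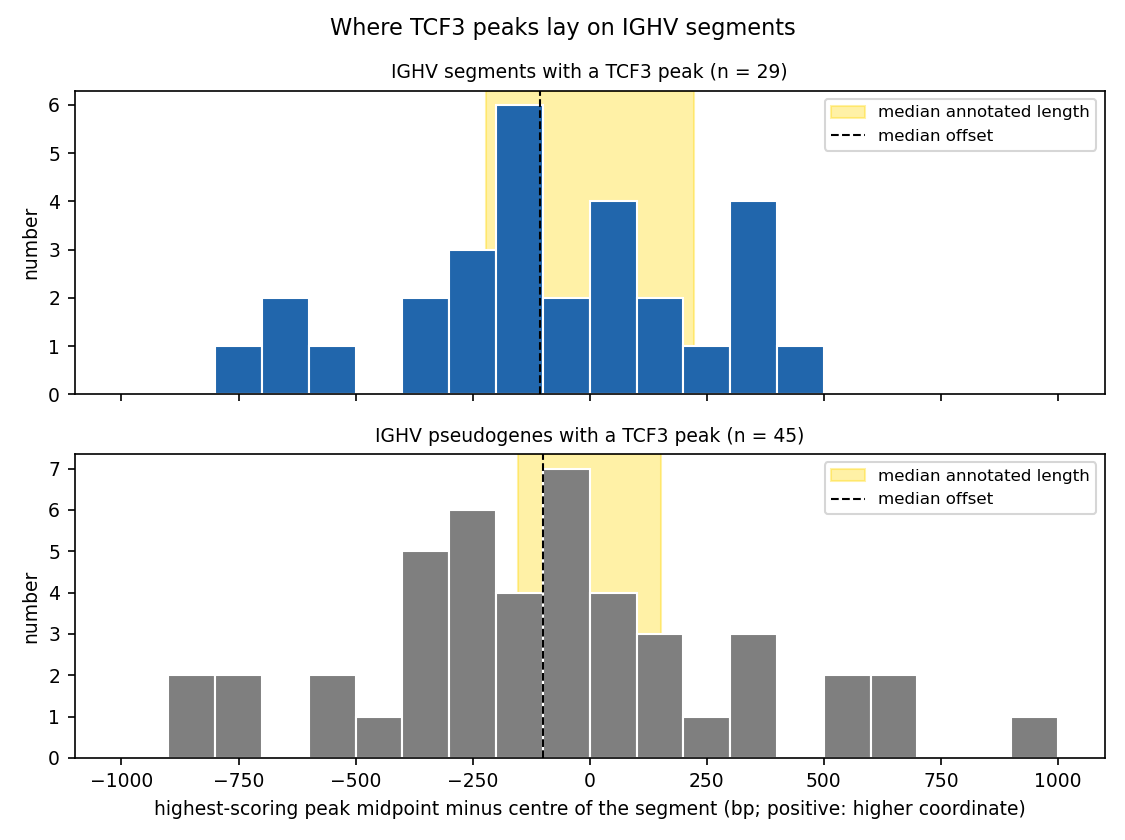
Number of IGHV segments (upper panel, n = 29) and IGHV pseudogenes (lower panel, n = 45) by the distance in bp from the centre of the segment to the midpoint of its highest-scoring TCF3 peak, in steps of 100 bp, with the median annotated length shaded and the median offset dashed. Midpoints at segments ran from -777.5 to 428.5 bp, and 15 of 29 lay inside the segment.

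IGHV segments fall into subgroups by sequence, and those within a subgroup are close relatives. The treatment of reads that match several places was not given in the sources used here, so the assignment of a peak to one segment rather than a near-identical copy is uncertain throughout. Of 7 subgroups with annotated V segments, 6 had at least 1 with a TCF3 peak. The counts were 6 of 10 in IGHV1, 2 of 4 in IGHV2, 12 of 22 in IGHV3, 6 of 7 in IGHV4, 2 of 2 in IGHV5, 0 of 1 in IGHV6 and 1 of 2 in IGHV7.

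The highest score at a V segment was 188, at IGHV4-28 (chr14:106324254-106324688), above that of 95.9% of all TCF3 peaks. IGHV3-30 (chr14:106335080-106335533) followed with 155. IGHV4-4 (chr14:106011922-106012356) had 130 and was the only V segment with 2 peaks, the lower of which scored 75. These 3 segments were the members with a score over 100.

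The IGHV4 subgroup also held IGHV4-34 with a score of 89, IGHV4-30-2 with 88, IGHV4-39 with 61 and IGHV4-61 with 44. Its 7 peaks had a median score of 88. The segment of this subgroup without a peak was IGHV4-59, whose nearest TCF3 midpoint was 1.87 kb away. IGHV4-34 is known for encoding cold agglutinin antibodies.

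In IGHV3, the largest subgroup, scores after IGHV3-30 were 79 at IGHV3-21 and IGHV3-23, and 70 at IGHV3-15, IGHV3-20 and IGHV3-66. IGHV3-7, IGHV3-53 and IGHV3-64 had 61 each, IGHV3-43 had 52, IGHV3-38 had 44 and IGHV3-35 had 36. The median over the 12 peaks of the subgroup was 65.5. IGHV3-23 is among the segments used most often in human antibodies.

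Scores in IGHV1 were lower, with a median of 46.5 over 6 peaks. They were 79 at IGHV1-58, 61 at IGHV1-45, 49 at IGHV1-2, 44 at IGHV1-3 and IGHV1-18, and 36 at IGHV1-24, which is 1 above the lowest score of the list. The small subgroups had scores of 70 at IGHV2-26, 52 at IGHV2-5, 89 at IGHV5-51, 43 at IGHV5-10-1 and 99 at IGHV7-4-1. The subgroups overlapped in score, and their differences were not tested.

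The 30 peaks at IGHV segments had a median score of 65.5 (range 36 to 188), and 15 of them scored above 61, the median of the whole TCF3 list. The 44 peaks at IGHV pseudogenes had a median of 67 (36 to 215), and the 42 peaks of the V part near neither kind had a median of 44 (36 to 166). Peaks at the segments were therefore spread through the ranks of the list, from rank 455 to the group of peaks tied at score 36.

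**Figure D4:**
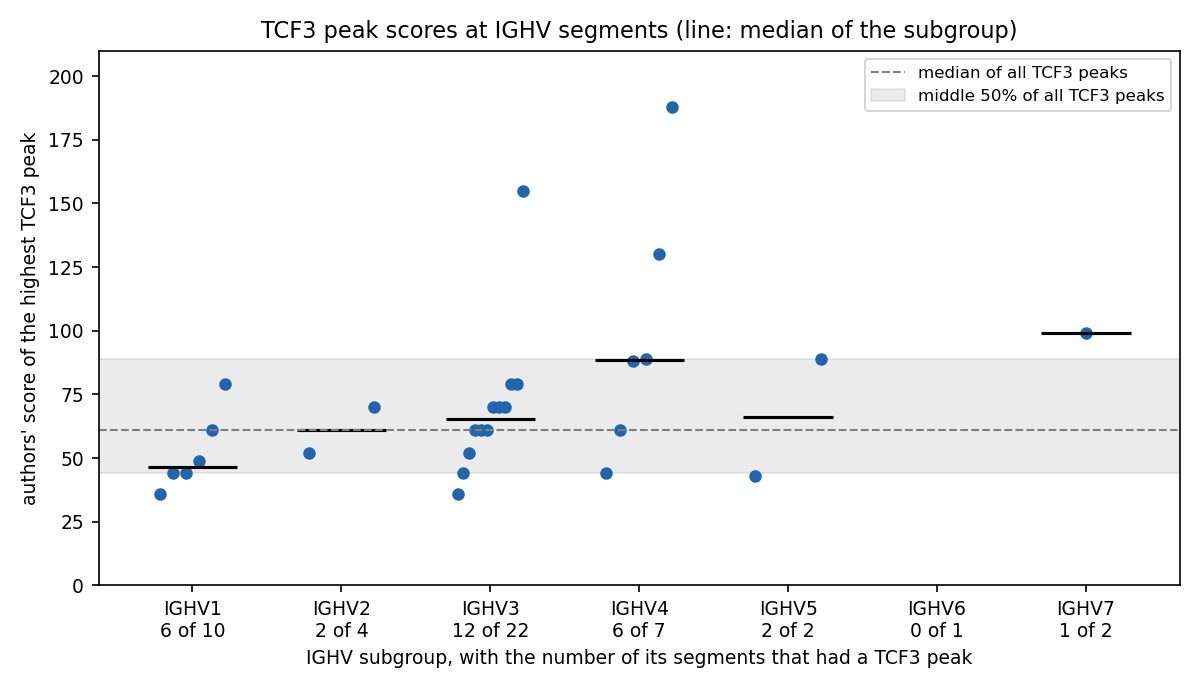
Authors' score of the highest TCF3 peak at each IGHV segment with a peak (points) by subgroup, with the median of each subgroup as a black line, the median of all TCF3 peaks (61) dashed and the middle 50% of all TCF3 peaks shaded. IGHV4-28 (188), IGHV3-30 (155) and IGHV4-4 (130) stand above 100, and the IGHV1 points lie between 36 and 79.

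The lambda segment with a TCF3 peak, IGLV1-40 (chr22:22409817-22410282), had a score of 44. Its peak was 362 bp wide and shared 132 bp with the segment. The only other TCF3 peak in the V part of the lambda locus scored 36 and lay 46.8 kb from any V segment or pseudogene. In the kappa locus the 4 TCF3 peaks scored 36 to 89, and the nearest midpoint to a V segment was 8.72 kb from IGKV1D-39.

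Segments with and without a TCF3 peak were not spread evenly along the heavy chain locus. From the lower-coordinate end to IGHV3-66, 736 kb away, 29 of 39 segments (74.4%) and 41 of 62 pseudogenes had a peak. Beyond IGHV3-66, toward the telomere, none of the 9 segments (IGHV1-69, IGHV2-70D, IGHV1-69-2, IGHV1-69D, IGHV2-70, IGHV3-72, IGHV3-73, IGHV3-74 and IGHV7-81) and 4 of 17 pseudogenes did. The density of TCF3 peaks was 14.8 per 100 kb before that point and 3.43 after it. The boundary was set from the positions of the peaks themselves, so the counts on its sides describe the list and were not tested. The single ATOH8 peak of the V part lay on the telomeric side.

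**Figure D5:**
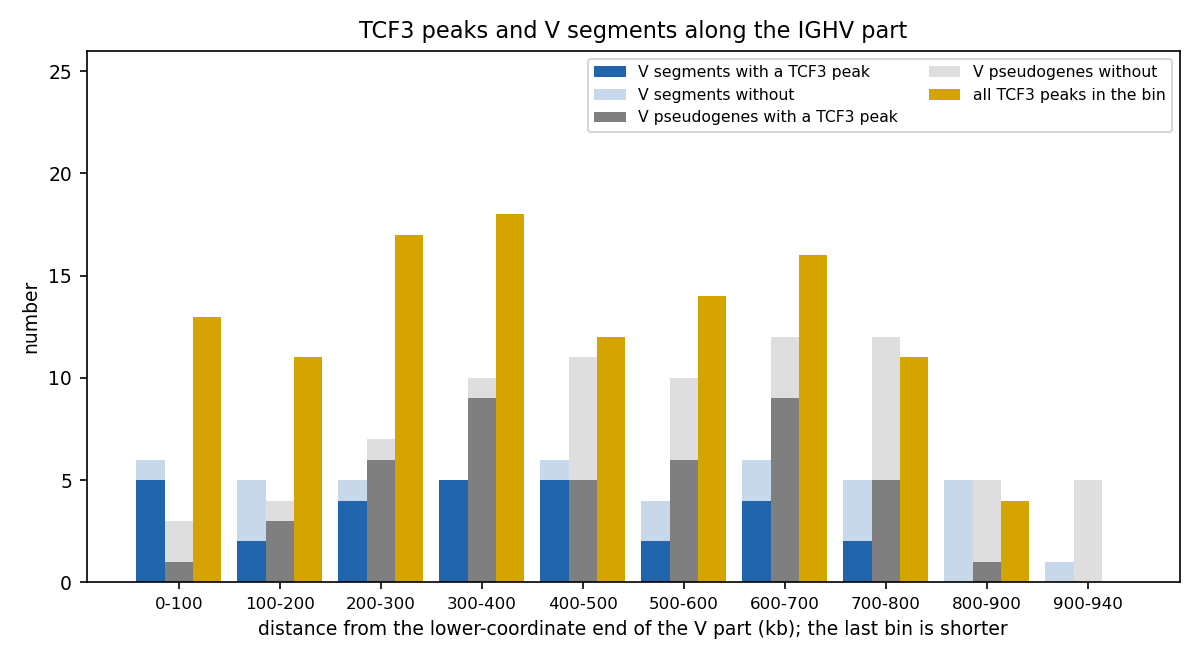
Number of V segments (blue), V pseudogenes (grey) and all TCF3 peaks (yellow) in 100 kb steps along the IGHV part from its lower-coordinate end, with the pale part of a bar for those without a TCF3 peak. Each step up to 800 kb holds 11 to 18 TCF3 peaks, the step from 800 to 900 kb holds 4, and the last, shorter step holds none.

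The V segments just inside the 1 kb limit had their nearest midpoint at 451 bp (IGHV3-43, score 52), 460 bp (IGHV3-20, 70) and 552.5 bp (IGHV3-53, 61). The next outside were IGHV6-1 at 1508 bp (110), IGHV3-16 at 1549.5 bp (36) and IGHV4-59 at 1874 bp (36). Among pseudogenes the nearest inside was IGHVII-51-2 at 797.5 bp and the nearest outside was IGHV3-50 at 1001 bp, which shared bases with a TCF3 peak although it was counted without one. The peak nearest to IGHV6-1, the V segment closest to the D segments, was 3114 bp wide and reached into the segment although its midpoint lay outside the limit. The other segments without a peak before IGHV3-66 were IGHV1-46, IGHV3-11, IGHV3-13, IGHV3-33, IGHV3-48, IGHV3-49 and IGHV3-64D. Their nearest midpoints were 1.91 to 19.7 kb away, IGHV3-64D being the farthest.

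Genes of V(D)J recombination and of B lymphocytes were examined at the same distance, 50 in all. TCF3 peaks lay at 9 of the 50 (18.0%, Wilson 95% interval 9.77 to 30.8%), close to the 20.3% of protein-coding genes. The highest were at IRF4 (213), a transcription factor of lymphocyte differentiation, POU2F1 (202), which encodes the octamer-binding protein Oct-1, TCF12 (154), another E protein, and EBF1 (89), a B lineage factor. ATOH8 peaks lay at 8 of the 50 (16.0%, 8.34 to 28.5%), against 17.6% of protein-coding genes. The highest were at IKZF3 (148), an Ikaros family factor, MSH6 (110), a mismatch repair gene, TCF3 itself (102) and TCF12 (86). RAG1 and RAG2, which encode the recombinase that cuts at V segments, had no peak of either factor within 1 kb. VPREB1, a surrogate light chain gene inside the lambda locus, had none either, and its nearest TCF3 midpoint was 21.4 kb away.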

How the data were processed

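Peak lists were analysed from 2 immunoprecipitations of DU145 cells, fixed in 1% formaldehyde for 10 min per the labels' protocols. Each list was matched to its sample by the factor in its name. The score per peak is the authors' own deposited value. An aligner, a peak caller, a definition of the score and the base from which coordinates count (0 or 1) were not given in the sources used here, and the use of the input was not either. The build is hg38, per the submitters' processing notes. Lines that held no peak numbered 5 for TCF3 and 3 for ATOH8.

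Segments came from the RefSeq table of GRCh38.p14, which gives no strand, and shares primary coordinates with hg38. V segments were clustered with gaps of up to 2 Mb to find each locus. T cell receptor segments placed elsewhere (5) were left out. No test was made, since each group had 1 library and the members and lists were chosen with earlier results of these data known. Named were all V segments with a peak, the 5 highest-scoring pseudogenes per locus, segments beside the 1 kb limit and the 4 highest-scoring listed genes per factor. IGHV4-80, RAG1, RAG2, VPREB1, the T cell receptor segments, the orphons and the segments without a peak were named after their values were seen. Wilson 95% intervals cover counting error only. Sequences are RefSeq promoter windows, and no window of a V segment's own start was at hand. The counting step was tested on simulated data with planted peaks. Tools were Python 3.11.15, pandas 2.3.3, numpy 2.4.6, matplotlib 3.10.9 and scipy 1.17.1.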

Additional observations from a re-analysis of the deposited data

How the results depend on the processing

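Of 31 alternative values, 24 stayed close to those reported (counts within 1.5 times, the median score within the order-statistic interval around it) and 7 moved. Several of the 24 could not have moved, so their number does not measure robustness. With no ATOH8 peak within 1 kb, a smaller window or a shortened list can only give 0. The best rank of a TCF3 peak at a V segment was 455 of 11330, so removing the top 1% of scores took away none of these peaks. With the higher-ranked 50% of TCF3 peaks, 17 V segments carried 1 of 18 peaks, against the 30 segments and 31 peaks reported. The 50% cut fell among 749 peaks tied at a score of 61, so which segments with that score were kept was arbitrary. Of the 31 peaks, 15 scored above 61. Within 5 kb, 71 TCF3 peaks lay at V segments, and 1 ATOH8 peak lay at 1 segment. Adding V pseudogenes gave 76 segments with a TCF3 peak and 1 with an ATOH8 peak. These 2 changes widen the set counted by construction. The TCF3 count was 29 within 500 bp, 38 within 5 kb and 31 by any shared base, and 30 without the top 1% of scores, with orphons added, or with each peak given only to its nearest segment or pseudogene. The last alternative was chosen after seeing the data. The count of segments with both factors was 0 under a shared base, a reciprocal overlap of 50% and midpoints within 200 bp. That outcome was fixed beforehand, since no V segment had an ATOH8 peak. The median TCF3 score ran from 61 to 79. Absent from the lists held are peaks in stretches of scores, and read depth was not known, so segments without a peak may include bound ones. No paired analysis was possible because each group had 1 library and no result came from a test.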
